A study of Mus musculus with 15 samples.

Results

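The circadian clock genes examined here were Clock, Arntl, Per1, Per2, Per3, Cry1, Cry2, Nr1d1, Nr1d2 and Dbp. They are the 10 genes whose symbols were listed for the core transcriptional clock, and all 10 were found among the 26628 genes of the deposited table and passed the filter on low values. The values come from RNA-seq of the whole cerebellum (Ce) and striatum (St) of male Hsd:ICR mice, an outbred stock. The mice belonged either to a line (Hi) bred for many generations toward high voluntary running on wheels or to an unselected control line (Co), in 4 CeCo, 4 CeHi, 4 StCo and 3 StHi samples. By the sample records, mice of every group were about 6 weeks old when given a cage with a running wheel. Brains were taken after 7 days, so wheel access was shared by Hi and Co. The study's methods give the ages differently. Each of Hi and Co was a single breeding line, and selection and chance divergence of 1 line from the other cannot be told apart. According to the study's methods, dissections ran over several hours in the early part of the dark phase, and the hour at which each mouse was taken is not given in the sources used here. The authors left out 1 StHi sample after a principal component analysis, and it was not analysed here.

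The mammalian clock is a feedback loop of transcription. CLOCK and ARNTL (also called BMAL1) bind E-box sequences and switch on the Per and Cry genes, whose proteins return to the nucleus and inhibit them. CLOCK and ARNTL also drive Nr1d1 and Nr1d2, which encode the repressors REV-ERB alpha and beta and act on ROR elements of Arntl, and Dbp, a PAR bZIP factor that acts on D-box sequences of output genes. Almost every tissue runs this loop, and in the brain the suprachiasmatic nucleus keeps the others in time. Arntl is known to cycle in opposite phase to Dbp and Nr1d1, and Per1 and Per2 also respond directly to neuronal activity through CREB and to glucocorticoids.

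Sequences near the start of the transcript are shown for the members in which a fixed set of letters was found there. RefSeq promoter windows of build GRCm38.p6 (250 bases before to 50 bases after the start) were given for 9 of the 10 members, in 13 windows, and Per2 was not among them. Both strands were searched, and no matches overlapped each other. The E-box CACGTG was found in windows of Cry1 and Per1, against 7.15% of all 32851 windows. The D-box TTATGTAA was found in Per3, against 0.938% of windows, and the variant TTATGCAA in Per1, against 0.743%. The ROR element core TAGGTCA was found in Arntl, against 2.61%, and the CREB site TGACGTCA in 0 of the member windows, against 1.79%. A match of letters is a description of the window and not a measured binding site.

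The 250 bases before the start of the clock repressor genes Per1, Per3 and Cry1 are given 5′ to 3′ on the strand of the gene, with the matched letters in capitals. Per1 lies on the + strand, and the other two lie on the − strand. The Per1 stretch is chr11:69098699-69098948, the Per3 stretch is chr4:151044666-151044915 and the Cry1 stretch is chr10:85185055-85185304.
Per1: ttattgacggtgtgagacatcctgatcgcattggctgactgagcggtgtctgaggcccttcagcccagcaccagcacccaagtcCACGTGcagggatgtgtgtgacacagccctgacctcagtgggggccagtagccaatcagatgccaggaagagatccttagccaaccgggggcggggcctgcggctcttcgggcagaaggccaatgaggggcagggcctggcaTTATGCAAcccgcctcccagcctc
Per3: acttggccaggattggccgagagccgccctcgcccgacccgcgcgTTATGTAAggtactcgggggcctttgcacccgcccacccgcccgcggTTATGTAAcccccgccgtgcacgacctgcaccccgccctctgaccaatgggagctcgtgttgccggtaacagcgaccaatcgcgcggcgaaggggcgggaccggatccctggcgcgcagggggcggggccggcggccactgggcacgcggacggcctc
Cry1: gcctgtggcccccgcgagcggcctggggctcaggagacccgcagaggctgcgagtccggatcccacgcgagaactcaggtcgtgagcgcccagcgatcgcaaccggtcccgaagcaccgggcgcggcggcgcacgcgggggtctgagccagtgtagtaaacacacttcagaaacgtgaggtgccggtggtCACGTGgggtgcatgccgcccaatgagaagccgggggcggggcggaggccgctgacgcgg

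In Per1 the E-box lay 161 to 166 bases before the start and the D-box variant 17 to 24 bases before it. Per3 carried the D-box at 151 to 158 and again at 198 to 205 bases before the start, and Cry1 carried the E-box at 55 to 60 bases before it. The Arntl match lay 31 to 37 bases after a RefSeq start, inside an annotated exon. Its part in the expression of Arntl was not tested. It is shown with the element core in capitals (chr7:113207530-113207559, + strand).
Arntl: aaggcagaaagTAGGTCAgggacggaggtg

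The deposited values are fragment counts divided by a library-size factor of each sample, here called normalized counts, and they summed to between 38499264 and 43669012 per sample. Divided by the value of a single fragment, which was 0.841 to 1.30 normalized counts, this corresponds to 32909388 to 47485591 fragments per sample. The lowest member count was 685 fragments, for Dbp in a CeHi library, so that counting error was small beside the spread between mice. Cerebellar marker genes (Pcp2, Car8, Gabra6, Cbln1, Cbln3 and Zic1) summed to 239907 to 277146 in Ce and to 1732 to 3529 in St, and striatal markers (Ppp1r1b, Drd2, Adora2a, Rgs9 and Penk) to 8222 to 11537 in Ce and 115559 to 169070 in St, as the tissue labels say. Within Ce the striatal marker sums did not overlap between lines, at 8222 to 9640 in CeCo and 10361 to 11537 in CeHi. Markers of other cells also moved with the line or between libraries. Oligodendrocyte markers summed to 274138 to 313024 in StHi and 179111 to 262550 in StCo, without overlap, and choroid plexus markers ranged from 784 to 113784 within Ce and from 207 to 16049 within St. Peptide genes listed for the suprachiasmatic nucleus (Avp, Vip and Nms) summed to at most 98.3 in Ce, and to 385 to 1553 in St. Which cells these transcripts came from was not tested. In bulk tissue, fewer cells of a type and less RNA per cell cannot be told apart.

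Because the table is not scaled by gene length, levels were compared between genes as normalized counts per kilobase of annotated exon. In CeCo the REV-ERB beta gene Nr1d2 had the highest level, 2837 ± 318 per kilobase (SD, n = 4). It was followed by Nr1d1 at 1608 ± 492, Dbp at 1339 ± 599, Cry2 at 1224 ± 92.9 and Cry1 at 1122 ± 139, and each of these 4 differed from its neighbour by less than the larger SD of the pair. Per1 at 743 ± 133, Per2 at 629 ± 44.0, Per3 at 586 ± 50.5, Clock at 541 ± 44.8 and Arntl at 495 ± 82.1 formed the lower group, again with neighbours within an SD. In StCo the order changed at its top. Dbp led there with 2341 ± 499 per kilobase (n = 4), followed by Nr1d2 at 1539 ± 83.4, Cry2 at 1504 ± 103 and Nr1d1 at 1312 ± 333, of which the last 3 lay within an SD of their neighbours. Per1 stood at 968 ± 169, Per2 at 736 ± 66.0 and Cry1 at 629 ± 58.3 in StCo, with steps larger than an SD between them. Per3 at 573 ± 59.0, Arntl at 503 ± 97.3 and Clock at 434 ± 47.5 closed the order, with neighbours within an SD. In the selected line Nr1d2 again led in Ce, at 2759 ± 431 (n = 4), and Dbp in St, at 1850 ± 580 (n = 3), although Cry2 at 1438 ± 85.8 lay within an SD of it.

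**Figure D1:**
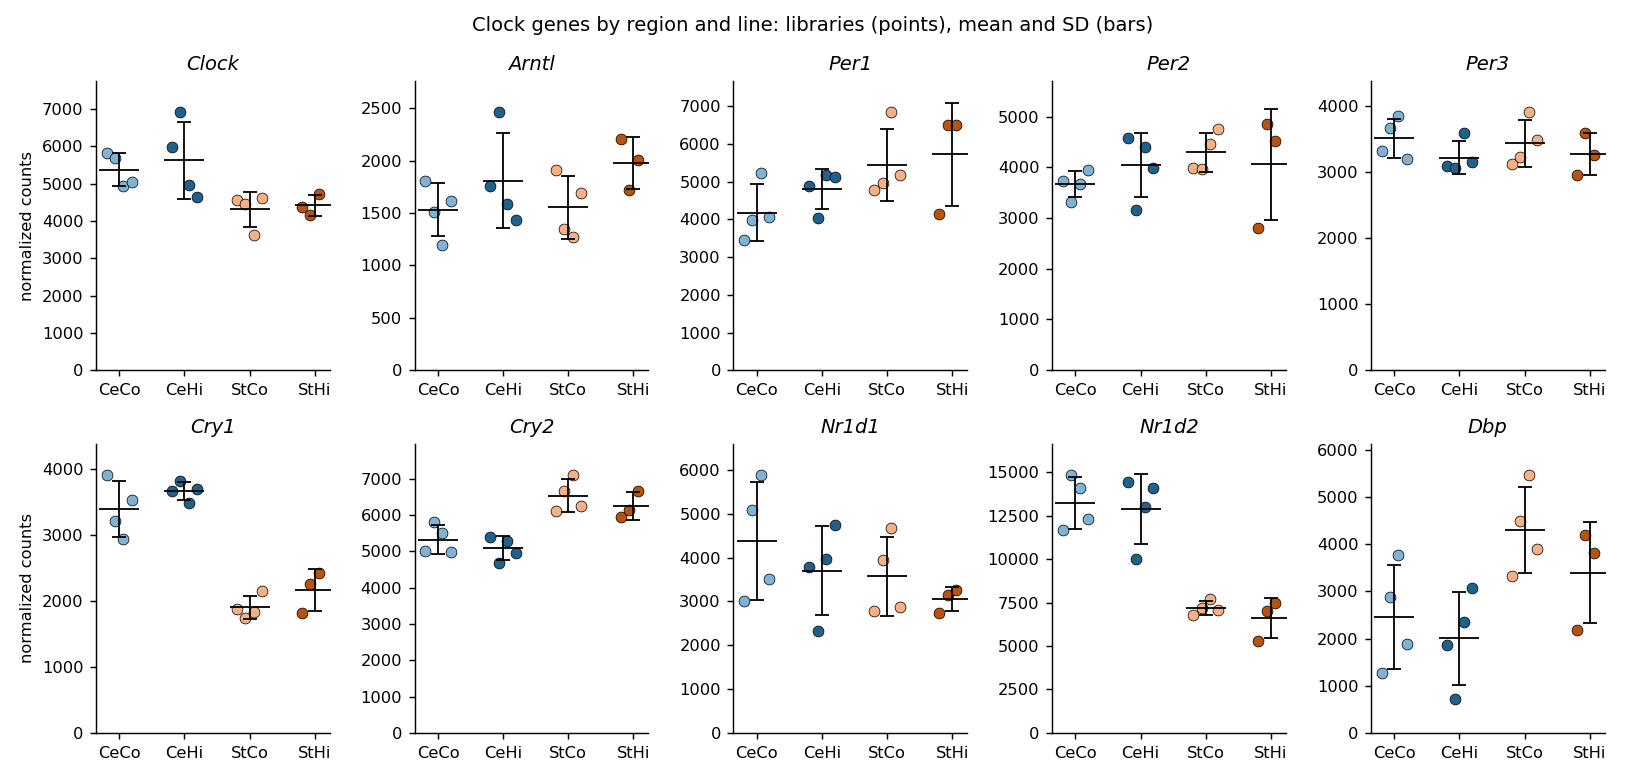
Normalized counts (vertical axes, linear, from 0) of the 10 clock genes in CeCo, CeHi, StCo and StHi libraries (points, placed from left to right by label number within a group), with the mean and SD of each group (bars). Cry1 and Nr1d2 lay higher in all Ce than in all St libraries and Cry2 lower, whereas the Hi and Co points of every gene overlapped within each region.

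The study's main question was whether expression differs between the selected and the control line. None of the 10 clock genes passed the limma test for line at an FDR-adjusted P-value under 0.05, in Ce (0 of 10, where 5.94% of all 15213 genes tested passed) or in St (0 of 10, background 2.66%). Without adjustment, 0 of 10 had a P-value under 0.05 in Ce and 0 in St, and edgeR and DESeq2 on the recovered fragments also called 0 in each region. Hi and Co libraries overlapped in every member in Ce (0 of 10 without overlap, against 13.3% of all genes) and in St (0 of 10, against 13.1%). The median absolute log2 difference of the members between lines was 0.12 in Ce and 0.13 in St, against 0.10 and 0.08 over all genes tested.

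Among the activators, Arntl, the partner of CLOCK, had values of 1805, 1508, 1198 and 1612 normalized counts in the CeCo libraries with label numbers 0, 1, 2 and 3. In CeHi they were 1758, 2465, 1585 and 1433. The ranges overlapped, with library 1 of CeHi above every CeCo library. In StCo they were 1911, 1347, 1268 and 1694, and in StHi 2209, 1720 and 2007 (numbers 0, 1 and 2), so that the highest StCo value lay within the range of StHi. The log2 difference, Hi minus Co, was 0.22 (SE 0.18, adjusted P = 0.54) in Ce and 0.35 (SE 0.19, adjusted P = 0.45) in St. Over both regions it was 0.29 (SE 0.13), with an unadjusted P of 0.0435, the only member under 0.05, and an adjusted P of 0.21. This fit counts the Ce and St libraries as independent. If they came from the same mice, the SE over both regions may be too small. Across regions 0 of 10 members were called by limma, edgeR and DESeq2 at an adjusted P under 0.05, where limma called 8.48% of all genes.

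Clock, which encodes the partner of ARNTL, differed by 0.05 (SE 0.11) in Ce and 0.04 (SE 0.12) in St, with a 95% interval of −0.19 to 0.28 in Ce. Its paralogue Npas2 and the other members of the pathway are described further on.

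Of the repressors, Per1 differed between lines by 0.21 (SE 0.17) in Ce and 0.05 (SE 0.18) in St, and Per2 by 0.12 (SE 0.15) and −0.12 (SE 0.16). Per3, the period gene with the least variation, differed by −0.13 (SE 0.08) and −0.07 (SE 0.09). The cryptochrome Cry1 differed by 0.11 (SE 0.09) in Ce and 0.17 (SE 0.10) in St, whereas Cry2 had almost the same estimate in both regions, −0.07 with an SE of 0.07. For Cry2 the 95% interval of the difference ran from −0.21 to 0.07 in Ce and from −0.22 to 0.08 in St, which makes it the most narrowly bounded member.

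The REV-ERB gene Nr1d1 differed by −0.24 (SE 0.26) in Ce and −0.20 (SE 0.28) in St, and Nr1d2 by −0.05 (SE 0.12) and −0.14 (SE 0.13). Dbp had the largest point estimates of all members, −0.36 in Ce and −0.38 in St, but also the largest standard errors, 0.45 and 0.49. Its 95% interval in Ce ran from −1.35 to 0.63, which is the range of differences these libraries leave possible. A test that the line difference itself differed between Ce and St (the interaction) gave adjusted P-values between 0.83 and 0.999 for the members, with 0 of 10 called by limma, 0 of 10 with an unadjusted P under 0.05 and 0 of 10 called by edgeR and DESeq2, where limma called 0.532% of all genes.

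**Figure D2:**
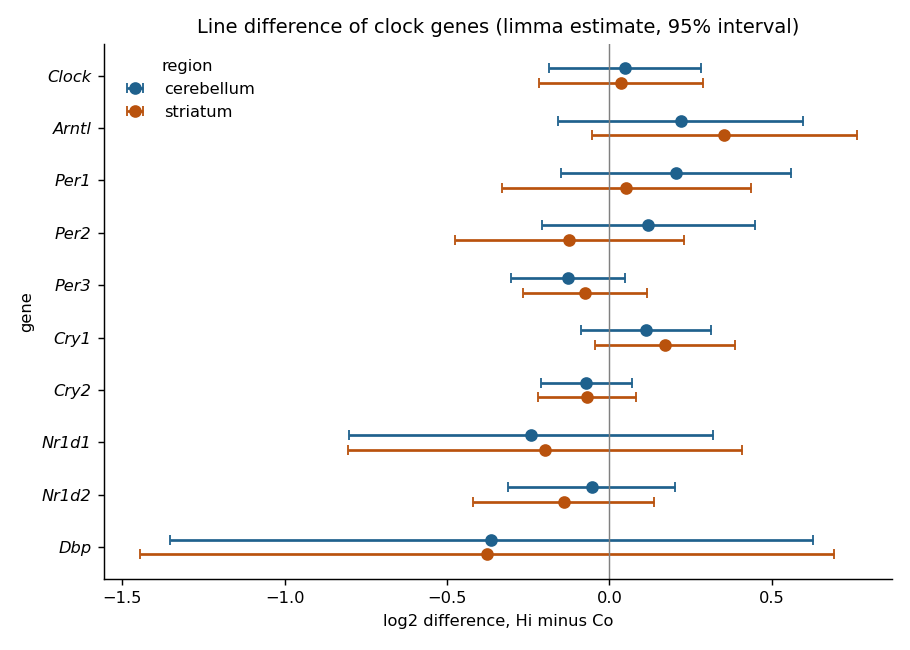
Estimated log2 difference between lines, Hi minus Co (horizontal axis), for each clock gene in the cerebellum (blue) and striatum (orange), with 95% intervals from the limma fit. Every interval includes 0, and those of Dbp and Nr1d1 are the widest.

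The width of these intervals follows from how far mice of the same group lay apart. The residual SD of Dbp on the log2 scale, which is its spread between libraries of a group, was 0.65. That of Nr1d1 was 0.38, Arntl 0.27, Per1 0.26, Per2 0.24, Nr1d2 0.19, Clock 0.18, Cry1 0.15, Per3 0.13 and Cry2 0.10, against a median of 0.12 over all genes tested and 0.09 over the 7701 genes with a mean of at least 1000 normalized counts.

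Dbp, the output factor, had 1281, 2889, 3776 and 1892 normalized counts in CeCo libraries 0, 1, 2 and 3, and 1874, 723, 2359 and 3064 in CeHi. The highest CeHi library was 4.24 times the lowest, and the highest CeCo library 2.95 times. In StCo the Dbp values were 3329, 4499, 5475 and 3901, and in StHi 2188, 4187 and 3822, with ratios of highest to lowest of 1.64 and 1.91. The spread was thus larger in Ce than in St in both lines, as a description without a test. In Hi the ratios came from 4 CeHi and 3 StHi libraries, after 1 StHi sample was left out. A range tends to be wider with more libraries.

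Nr1d1 had 3020, 5084, 5890 and 3512 normalized counts in CeCo, 3779, 2320, 3978 and 4733 in CeHi, 2790, 3943, 4676 and 2866 in StCo, and 2745, 3153 and 3269 in StHi. The libraries that were high for Dbp were high for Nr1d1, and library 1 of CeHi was the lowest of its group for both. Per1 had 3448, 3987, 5229 and 4059 in CeCo, 4899, 4031, 5182 and 5128 in CeHi, 4784, 4961, 6850 and 5183 in StCo, and 4153, 6513 and 6516 in StHi. Here library 2 was the highest of CeCo and of StCo, and library 1 the lowest of CeHi.

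After each group's mean was subtracted, the log2 deviation of Dbp had the same sign as that of Nr1d1 in 15 of 15 libraries and as that of Nr1d2 in 15 of 15. It had the sign of Per1 in 13 and of Cry2 in 13, and the opposite sign to Arntl in 14 of 15. The Pearson correlations of these deviations over the 15 libraries, which share their group means and were computed as a description, were 0.93 between Dbp and Nr1d1, 0.88 between Dbp and Nr1d2, −0.92 between Dbp and Arntl and −0.94 between Nr1d1 and Arntl. Clock went with Arntl (0.81) and Per3 with Per1 (0.78). Cry1 was the member least tied to the others, and its highest correlation with a member was 0.53, with Per2.

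**Figure D3:**
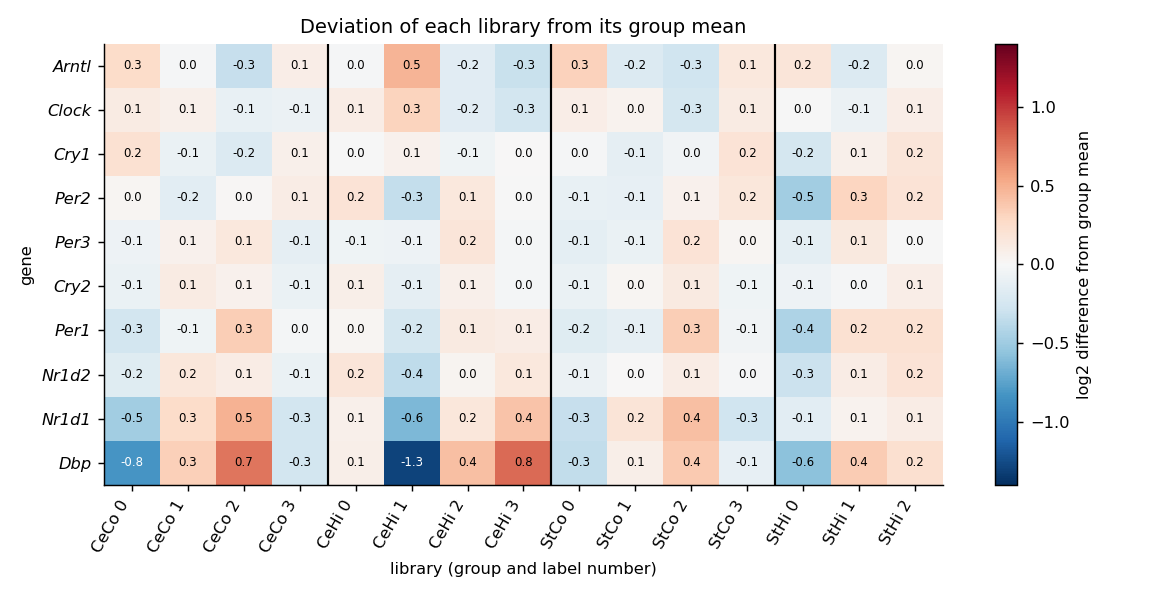
Log2 deviation of each of the 15 libraries (columns, in blocks CeCo, CeHi, StCo and StHi) from its group mean for the 10 clock genes (rows), from blue (below the mean) to red (above it). Library 1 of CeHi was the lowest for Dbp and Nr1d1 and the highest for Arntl of its group, and library 2 of CeCo and of StCo showed the opposite.

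Because Dbp and Arntl moved against each other, their ratio within a library spanned a wider range than either gene. The ratio of Dbp to Arntl normalized counts was 0.709, 1.91, 3.15 and 1.17 in CeCo, and 1.07, 0.293, 1.49 and 2.14 in CeHi. In StCo it was 1.74, 3.34, 4.32 and 2.30, and in StHi 0.991, 2.43 and 1.90. The low ratios were those of CeHi library 1, CeCo library 0 and StHi library 0, and the ranges of the lines overlapped in both regions. Choroid plexus markers did not follow the ratio in one direction. They were highest in library 2 of CeCo (113784 normalized counts), where the ratio was the highest of its group, and in library 1 of CeHi (110129), where it was the lowest. Their part in the variation was not tested, nor was that of the hour of dissection.

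Libraries of Ce and St that carried the same label number deviated together in the control line. The order of the 4 numbers was the same in CeCo and StCo for 4 of the 10 members, Arntl, Per1, Nr1d1 and Dbp, where 5.9% of all genes had the same order. For Dbp and Nr1d1 it ran, from the highest, 2, 1, 3 and 0, and for Arntl exactly the reverse. The deviations of Ce and St had the same sign in 35 of 40 pairs of values of the 10 members (87.5%), against a mean of 54.7% over all genes tested. These values come from 4 pairs of libraries and from genes that moved together, so they are not independent. In the selected line the same order of the 3 shared numbers was found for 0 of 10 members, against 12.1% of all genes. The sign was the same in 10 of 30 pairs (33.3%), again not independent, against 45.2%. Because 1 StHi sample was left out, the StHi numbers need not match those of CeHi, and the lines cannot be compared in this. The labels do not say whether a number marks a mouse, and these counts were chosen after the values were seen.

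**Figure D4:**
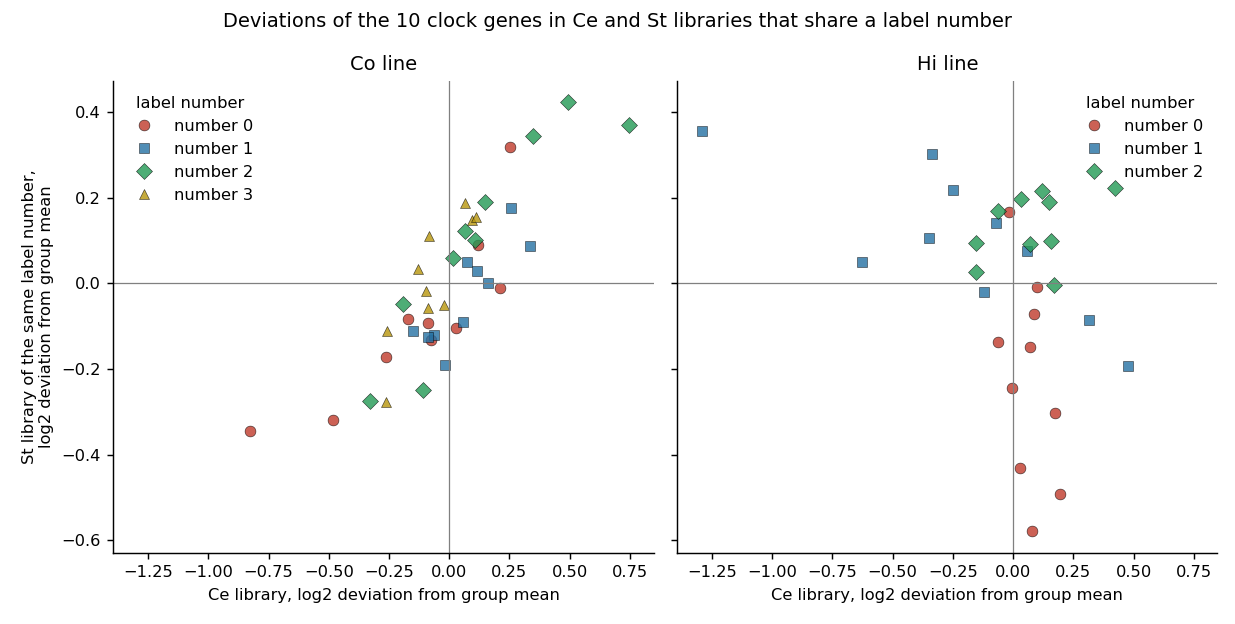
Log2 deviation from the group mean of the 10 clock genes in a Ce library (horizontal axis) and in the St library with the same label number (vertical axis), in the control line (left, 4 numbers) and the selected line (right, 3 numbers). In the control line 35 of 40 points lie in the quadrants of equal sign, and in the selected line 10 of 30. Points of the same number share a pair of libraries and are not independent, and StHi numbers need not match those of CeHi.

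For each member the gene outside the 10 with the most similar deviations was found by Pearson correlation over the same 15 libraries among all genes tested. It was Coq10b for Dbp (0.98), As3mt for Nr1d1 (0.96), Mthfd1l for Nr1d2 (0.94), Myo5a for Clock (0.97), Cacna1a for Arntl (0.94), Tctn1 for Per1 (0.93), Coro7 for Per2 (0.95), 4930581F22Rik for Per3 (0.91), Usp4 for Cry1 (0.94) and 4833420G17Rik for Cry2 (0.95). Each is the highest of the genes tested, and was given no test.

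Between regions the clock genes differed in both directions. In the mean of both lines, 6 of 10 members passed the limma test at an adjusted P under 0.05, where 80.2% of all genes passed. Of these, 3 were higher in Ce (40.6% of all genes) and 3 higher in St (39.6%). The median absolute difference of the members was 0.31 on the log2 scale, against 0.44 over all genes.

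Nr1d2 and Dbp had the largest region differences among the members, in opposite directions and of nearly the same size. Nr1d2 had 11695, 14857, 14072 and 12290 normalized counts in CeCo, 14419, 9991, 12974 and 14070 in CeHi, 6764, 7192, 7695 and 7055 in StCo, and 5290, 7026 and 7487 in StHi. Every Ce library lay above every St library, and the level was 1.89-fold higher in Ce (log2 0.92, SE 0.09, adjusted P = 8.6e-08). Its relative Nr1d1 did not pass, with 0.25 (SE 0.19, adjusted P = 0.24) and a 95% interval of −0.16 to 0.66.

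Cry1 had 3911, 3202, 2937 and 3526 normalized counts in CeCo, 3661, 3816, 3489 and 3689 in CeHi, 1882, 1744, 1838 and 2155 in StCo, and 1811, 2260 and 2418 in StHi. The regions did not overlap, and Cry1 was 1.74-fold higher in Ce (log2 0.80, SE 0.07, adjusted P = 1.3e-08). The other cryptochrome went the opposite way. Cry2 had 4993, 5796, 5504 and 4972 in CeCo, 5396, 4666, 5294 and 4962 in CeHi, 6112, 6666, 7105 and 6244 in StCo, and 5933, 6142 and 6657 in StHi. All St libraries were above all Ce libraries, and Cry2 was 1.23-fold higher in St (log2 −0.30, SE 0.05, adjusted P = 2.0e-05).

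Clock had 5819, 5683, 4934 and 5047 normalized counts in CeCo, 5974, 6919, 4972 and 4644 in CeHi, 4568, 4450, 3612 and 4618 in StCo, and 4387, 4156 and 4723 in StHi. The control libraries did not overlap between regions, while library 3 of CeHi lay below library 2 of StHi. Clock was 1.25-fold higher in Ce (log2 0.32, SE 0.08, adjusted P = 0.0017). Arntl, in contrast, differed by −0.09 (SE 0.13, adjusted P = 0.53), with a 95% interval of −0.37 to 0.19.

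Dbp and Per1 were called higher in St, on weaker grounds. Dbp was 1.86-fold higher in St (log2 −0.90, SE 0.33, adjusted P = 0.026), and its CeCo and StCo ranges overlapped, as did CeHi and StHi. The call was lost without StHi library 1 (adjusted P = 0.063) or StHi library 2 (0.057). Per1 was 1.24-fold higher in St (log2 −0.31, SE 0.12, adjusted P = 0.030), and its call was lost when any of CeCo libraries 0 and 1, CeHi library 1, StCo library 2 and StHi libraries 1 and 2 was left out, with adjusted P-values of 0.052 to 0.082.

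Per2 and Per3 were not called. Per2 ranged from 3324 to 3941 in CeCo, 3166 to 4582 in CeHi, 3973 to 4755 in StCo and 2807 to 4860 in StHi, where library 0 stood well below the others. Its region difference was −0.11 (SE 0.11, adjusted P = 0.38). Without StHi library 0 it was −0.23 and passed (adjusted P = 0.014). Per3 ranged from 3064 to 3851 in Ce and 2968 to 3916 in St, with a difference of 0.00 (SE 0.06) and a 95% interval of −0.13 to 0.13.

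Within the control line 5 of 10 members were called between regions (Clock, Per1, Cry1, Cry2 and Nr1d2), where 74.7% of all genes were, and within the selected line 4 of 10 (Clock, Cry1, Cry2 and Nr1d2), where 70.5% were. Ranges of CeCo and StCo were apart for Clock, Per2, Cry1, Cry2 and Nr1d2 (5 of 10, against 69.9% of all genes), and those of CeHi and StHi for Cry1, Cry2 and Nr1d2 (3 of 10, against 68.3%). The estimates were close in both lines for Nr1d2 (0.87 in Co and 0.96 in Hi), Cry1 (0.82 and 0.77), Cry2 (−0.30 and −0.30) and Clock (0.32 and 0.33). Clock was lost in Co without StCo library 2 (adjusted P = 0.064), which also left 3 members called there, and in Hi without any of CeHi libraries 0 and 1 and StHi libraries 0 and 1 (adjusted P of 0.053 to 0.081).

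**Figure D5:**
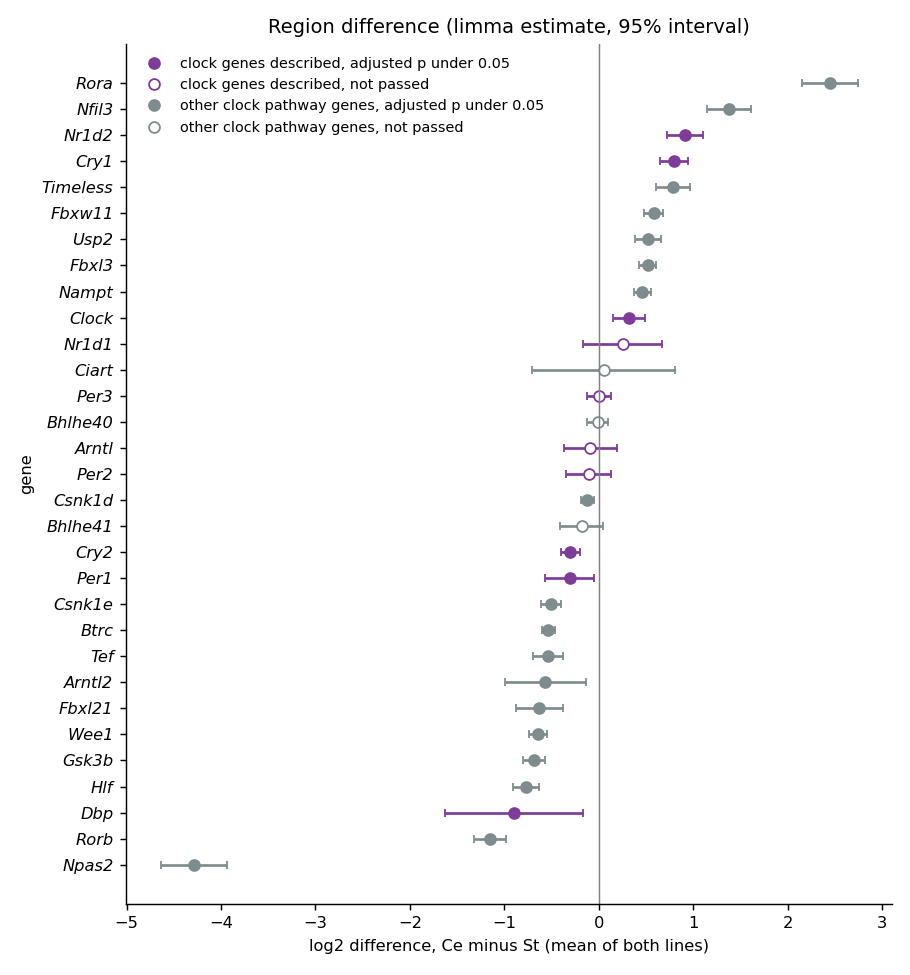
Estimated log2 difference between regions, Ce minus St in the mean of both lines (horizontal axis), with 95% intervals from limma, for the 10 clock genes (purple) and 21 other genes of the clock pathway (grey). Filled points passed at an adjusted P under 0.05. Nr1d2, Cry1 and Clock lie to the right, Cry2, Per1 and Dbp to the left, and the members' differences are small beside those of Npas2 and Rora.

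A list of 21 other genes of the clock pathway was tested beside the members, and all 21 passed the filter. Between regions 18 of them (85.7%) passed, against 80.2% of all genes, and the share was thus near the background. Of the 18, 7 were higher in Ce (40.6% of all genes) and 11 higher in St (39.6%), with a median absolute log2 difference of 0.57 against 0.44 over all genes. Npas2, which can take the place of CLOCK as partner of ARNTL, had 119 to 275 normalized counts in Ce and 2720 to 3425 in St, a 19.5-fold higher level in St (log2 −4.29, SE 0.16, adjusted P = 2.7e-12). Rora and Rorb encode receptors that activate Arntl through the elements that REV-ERB proteins bind, and they differed in opposite directions. Rora was 5.45-fold higher in Ce (log2 2.45, SE 0.14, adjusted P = 1.5e-10) and Rorb was 2.22-fold higher in St (log2 −1.15, SE 0.08, adjusted P = 4.8e-10). Nfil3, a repressor at D-box sequences, was 2.60-fold higher in Ce (log2 1.38, SE 0.11).

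Between lines 3 of the 21 were called in Ce, all lower in Hi, where 2.99% of all genes were lower, and 1 was called in St, also lower in Hi (1.17% of all genes). Arntl2, the paralogue of Arntl, was the gene called in both regions. It had 105, 52.6, 70.8 and 99.7 normalized counts in CeCo and 19.3, 26.4, 12.97 and 12.7 in CeHi. In StCo it had 95.04, 96.9, 95.6 and 86.8, and in StHi 38.9, 20.4 and 42.7. Hi and Co did not overlap in either region, and Arntl2 was 4.45-fold lower in Hi in Ce (log2 −2.15, SE 0.28, adjusted P = 9.6e-05) and 2.84-fold lower in St (log2 −1.51, SE 0.30, adjusted P = 0.0090). It was also expressed at a small fraction of the level of Arntl, with 28.1 normalized counts per kilobase in CeCo against 495. Fbxw11, which encodes an F-box protein that takes part in the turnover of PER proteins, was lower in CeHi (10872 ± 590 in CeCo and 8401 ± 736 in CeHi, SD, n = 4 each, log2 −0.38, SE 0.06, adjusted P = 0.0013), and in St it differed by −0.13 (adjusted P = 0.42). Bhlhe40, which encodes DEC1, a repressor at E-boxes, was lower in CeHi as well (3112 ± 171 and 2633 ± 120, log2 −0.25, SE 0.07, adjusted P = 0.047), with a difference of 0.02 in St (adjusted P = 0.97). In the mean of both regions Arntl2 (−1.83) and Fbxw11 (−0.26) were lower in Hi and Nfil3 was higher (0.38, SE 0.11, adjusted P = 0.044). The Nfil3 call lies near the threshold. It counts Ce and St libraries as independent, and its SE may be too small if they came from the same mice. The interaction called 0 of the 21 by limma, with 2 at an unadjusted P under 0.05, and the line differences of Fbxw11 and Bhlhe40 were therefore not shown to differ between regions.

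Ciart, which encodes a repressor of the CLOCK and ARNTL pair and is listed under the older symbol Gm129, was singled out after its values were seen, because its spread within groups resembled that of Dbp. It had 288, 636, 837 and 417 normalized counts in CeCo, 515, 198, 518 and 686 in CeHi, 328, 577, 970 and 412 in StCo, and 240, 477 and 506 in StHi. The same libraries were high and low as for Dbp in the control groups, and library 1 of CeHi was again the lowest. Its residual SD was 0.69, above that of Dbp, and its deviations correlated with those of Dbp at 0.95 and of Arntl at −0.94 over the 15 libraries. The PAR bZIP genes Tef and Hlf, relatives of Dbp, had smaller residual SDs of 0.17 and 0.14 and followed Dbp with correlations of 0.91 and 0.80, while Npas2 went against it at −0.85.

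Genes that respond to neuronal activity or glucocorticoids were counted beside Per1 and Per2. Of 7 immediate early genes (Fos, Fosb, Junb, Egr1, Arc, Nr4a1 and Npas4), 0 were called between lines by limma in Ce or in St, with 1 at an unadjusted P under 0.05 in each region, where 5.94% and 2.66% of all genes were called. Between regions 6 of the 7 were called higher in St, against 39.6% of all genes. Of 4 glucocorticoid responsive genes (Fkbp5, Sgk1, Tsc22d3 and Errfi1), Sgk1, a kinase gene induced by the glucocorticoid receptor, was higher in Hi in both regions, as 1 of 4 called in each, against 5.94% of all genes in Ce and 2.66% in St. Sgk1 had 3523 ± 242 in CeCo and 4668 ± 426 in CeHi (SD, n = 4 each, log2 0.40, SE 0.09, adjusted P = 0.0098), and 3434 ± 231 (n = 4) in StCo and 5873 ± 876 (n = 3) in StHi (log2 0.76, SE 0.09, adjusted P = 9.1e-05). The other 3 were not called between lines, with positive estimates in both regions.

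In GRCm38 the activator genes lie at chr5:76209868-76304792 (Clock, − strand) and chr7:113207465-113314126 (Arntl, + strand). The period genes are Per1 at chr11:69095217-69109960, Per2 at chr1:91415982-91459324 and Per3 at chr4:151003652-151044665. Cry1 spans chr10:85131700-85185064, Cry2 chr2:92403646-92434043 and Nr1d2 chr14:18204054-18239127. Some members share exon bases with a neighbour on the opposite strand. Dbp (chr7:45705088-45710203) shares 539 bases, 29.3% of its exon length, with Sphk2, and Nr1d1 (chr11:98767932-98775333) shares 263 bases, 9.67%, with the thyroid receptor gene Thra. Cry2 shares 149 bases with D930015M05Rik and Arntl 33 bases with Gm45355. No strand setting is given for the counting, so reads from the shared bases cannot be assigned to either gene. Sphk2 ranged from 1553 to 2219 normalized counts in Ce and from 2100 to 2912 in St, against 723 to 3776 and 2188 to 5475 for Dbp. Its means were thus higher in St, as were those of Dbp, and the part of the shared bases was not tested. Thra was 9085 to 12496 in Ce and 17715 to 19863 in St.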

How the data were processed

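Samples were grouped from the deposited labels alone (4 CeCo, 4 CeHi, 4 StCo, 3 StHi). The submitters' processing notes name TopHat2, Cuffnorm 2.2.1 and Cuffdiff, with GRCm38 as the build. For each gene the deposited signal is a fragment count that the authors divided by a library factor, without regard to length. Low values lay within 0.1 of a whole number of fragments in 99.5% to 99.7% of cases per sample. Of 26628 genes, 15213 had a CPM of at least 1 in 3 samples and were tested. Values were scaled with TMM factors (edgeR 4.0.16) and transformed as log2(value + 1), and fold changes are on this scale. The 4 group means were modelled over all 15 samples in limma 3.58.1 (R 4.3.3, trended and robust), with Benjamini-Hochberg adjustment over all genes tested. Alternatives included edgeR and DESeq2 1.42.0 on recovered fragments, other filters, pseudocounts and scalings, sample weights, blocks, and each sample left out. The model was also run on simulated data with independent samples and the same dispersion for every gene. That run does not show how the model performs for genes as variable as Dbp.

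The members, lists and comparisons were chosen with earlier results of these data known. All 10 members were named. Other clock genes were named where they passed in a line comparison or had one of the largest region differences, and Rorb, Tef, Hlf and Ciart were added after their values were seen. Some listed genes are not reported here and were left out of the counts and sums of their lists. Exon lengths came from a GENCODE annotation of GRCm38 and promoters from RefSeq. Same-numbered CeCo and StCo libraries deviated together (Pearson r over 15213 genes of 0.17 to 0.28, each highest with its own number), whereas CeHi and StHi did not (−0.08 to 0.05). With a StHi sample left out, the StHi numbers need not match those of CeHi. The labels do not say that replicates were separate mice, while the study's methods describe samples of individual mice. P-values set a difference against the spread between samples within groups, with all 15 samples taken as independent.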

Additional observations from a re-analysis of the deposited data

Results flagged for a closer look

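In 30 groups of 4 libraries, the gap between the most distant library and its nearest neighbour was compared with the range of the group. It passed the critical value of Dixon's test in 2 of them, and chance alone gives about 1 in 20. In StCo, Clock was low in library 2 (3612 normalized counts, against 4450 to 4618 in the others), with a gap of 0.833 of the range. In CeHi, Per3 was high in library 2 (3599, against 3064 to 3150), with a gap of 0.840 of the range. Groups of 3 libraries were not examined in this way.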

How the results depend on the processing

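No clock gene was called between lines, in either region, across regions or in the interaction, under any alternative run or with any library left out. Of 614 values compared with all samples included, 602 stayed the same, and of 840 with 1 library left out, 789 did. For the estimate of a gene, the same means its direction and side of the threshold were kept. For a count of genes called, it means a value within a set ratio of the main count. The region difference of Per3, 0.00, turned to −0.011 with a CPM filter of 5, −0.0057 with median-of-ratios scaling, −1.7e-05 with edgeR and −0.0075 with DESeq2, and the line difference of Per2 in St to 0.00 (0.0049) with sample weights. Per1 between regions in Co was lost with no filter (adjusted P = 0.057), and Dbp in Hi passed with sample weights (0.045). DESeq2 called 1390 genes of all in Ce, 711 in St and 277 in the interaction, and sample weights gave 740 in St and 182 in the interaction, against 903, 405 and 81. The cause was not tested.

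With each library left out in turn, line differences ranged in Ce from −0.053 to 0.14 for Clock, −0.11 to 0.067 for Nr1d2 and −0.63 to 0.071 for Dbp, which turned positive without CeHi library 1. Without that library the Ce difference of Arntl fell from 0.22 to 0.066 and that of Nr1d1 shrank from −0.24 to −0.028. In St they ranged from −0.048 to 0.079 for Clock, −0.057 to 0.27 for Per1, −0.27 to 0.12 for Per2 and −0.24 to 0.011 for Nr1d2. The region difference of Per3 ranged from −0.035 to 0.035. All genes called ranged from 269 to 468 in St and from 46 to 117 in the interaction, and clock genes called between regions in Co from 3 to 6. Dbp between regions in Co passed without CeCo library 2 (adjusted P = 0.046) or CeHi library 1 (0.033), and Per1 in Hi without StHi library 0 (0.023). In Co, the Per1 call was lost without any of 8 libraries. Depth limits no member, as the lowest had 685 fragments.

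With the label number as a replicate block, 0 clock genes were called between lines or in the interaction and 6 between regions. A block within line leaves no line comparison, and it gave 0 in the interaction and 6 between regions. No member's call changed under either block. Both blocks rest on label numbers that need not match between CeHi and StHi.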
